A study of Mus musculus with 30 samples.

Results

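The 6 peroxiredoxin genes (Prdx1 to Prdx6), the glutathione peroxidase genes Gpx1 and Gpx4 and the superoxide dismutase genes Sod1 and Sod2 were described in mouse hippocampus after social isolation. These 10 genes of the 17477 in the count table were chosen by name, and the set was chosen because Prdx6 was lower in isolated mice in these same libraries, so the difference of Prdx6 between housing groups is a description and carries no test. All 10 were in the table and passed the filter on low counts in both sexes. The libraries hold poly(A) RNA of the hippocampus of adult mice of the C57 BL/6J strain, taken from 8 females and 7 males housed alone after weaning (SI) and from 7 females and 8 males housed in groups (GH). Each mouse gave 1 library, no animal carried an engineered allele or received a drug, and SI and GH mice differed, as far as the labels say, in housing alone. The comparison asks how much RNA of each enzyme SI and GH mice of the same sex held, and whether the difference was the same in both sexes.

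Superoxide, which leaks from the mitochondrial respiratory chain and is made by oxidases, is converted to hydrogen peroxide by superoxide dismutases. Peroxiredoxins and glutathione peroxidases then reduce hydrogen peroxide and organic peroxides, drawing their electrons from thioredoxin or from glutathione. A peroxiredoxin does this with a peroxidatic cysteine, whereas Gpx1 and Gpx4 use a selenocysteine that is read from a TGA codon inside the reading frame. In the brain, Prdx6 and much of the glutathione machinery are best known from astrocytes, and Prdx2 and Prdx5 are prominent in neurons.

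The codon of the reacting residue differs between the peroxiredoxins and the 2 selenoenzymes shown here. Each line gives 33 bases of coding sequence of the reference transcript of build NCBIM37 (GENCODE vM1), 5′ to 3′ on the coding strand, with that codon in capitals.
Prdx1: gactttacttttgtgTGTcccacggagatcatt
Prdx2: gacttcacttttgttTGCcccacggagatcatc
Prdx3: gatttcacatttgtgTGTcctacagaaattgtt
Prdx4: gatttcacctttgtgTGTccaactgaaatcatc
Prdx5: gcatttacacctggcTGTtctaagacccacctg
Prdx6: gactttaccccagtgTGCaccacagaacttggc
Gpx1: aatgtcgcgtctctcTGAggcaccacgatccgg
Gpx4: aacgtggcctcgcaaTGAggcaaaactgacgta
The codon is number 52 in Prdx1, 51 in Prdx2, 109 in Prdx3, 127 in Prdx4, 96 in Prdx5, 47 in Prdx6, 47 in Gpx1 and 129 in Gpx4, counted from the first codon of the transcript used. The windows of Prdx1 (chr4:116364413-116364445, plus strand), Prdx2 (chr8:87494367-87494399, plus), Prdx6 (chr1:163177484-163177516, minus), Gpx1 (chr9:108241767-108241799, plus) and Gpx4 (chr10:79517467-79517499, plus) each lay in 1 exon. Those of Prdx3, Prdx4 and Prdx5 crossed an exon junction, and their codons lay at chr19:60946030-60946032, chrX:151767003-151767005 and chr19:6982478-6982480, all on the minus strand. Sod1 (chr16:90220987-90226567, plus) and Sod2 (chr17:13200705-13210985, plus) hold a metal at their active site and have no such codon. The counts were made on GRCm39 according to the labels, so these positions belong to the same Ensembl genes on another build. Prdx2 and Prdx6 have near-identical copies in the mouse genome, and none of the 3 copies looked up had an entry of its own in the count table, so reads from them could be included.

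Each mouse had 18809307 to 100844898 counts in all, and the members had between 146 counts (Prdx4, males) and 24440 counts (Gpx4, females) in a mouse. Levels are given as CPM, the counts of a gene relative to those of the library, with library sizes scaled by TMM. The Log2FC is SI minus GH as fitted by edgeR's quasi-likelihood model with surrogate variables, and adjusted p-values are Benjamini-Hochberg values over all genes tested in a sex. Male SI animals 25, 33 and 39 stood apart from the other 12 males, and the members' results in males are therefore given with and without them. Neuron markers were present in every library, with Snap25 at or above 1358 CPM, as were the markers of hippocampal neurons, with Prox1 at or above 33.5 CPM. Markers of choroid plexus, a tissue beside the hippocampus, varied most, with summed levels of 857.9 to 4872 CPM in females and 38.3 to 4136 CPM in males.

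In females, Prdx6 is described without a test, as it led to the choice of the set, and none of the other 9 genes passed the test. Prdx6 (ENSMUSG00000026701) encodes the 1-Cys peroxiredoxin, which reduces phospholipid hydroperoxides with glutathione. The 7 GH females held 205.2, 227.1, 233.7, 252.2, 256.7, 260.3 and 302.1 CPM of Prdx6. The 8 SI females held 159.4, 182.3, 190.5, 204.6, 210.7, 238.4, 238.6 and 260.0 CPM. Of the isolated females 4 of 8 lay below the lowest GH female and 2 GH females lay above the highest SI female, while the groups overlapped between 205.2 and 260.0 CPM. Mean CPM was 210.6 ± 33.5 in SI (SD, n = 8) and 248.2 ± 30.7 in GH (SD, n = 7), a difference of -15.2%, and the Log2FC was -0.22 (SE 0.033). Over 7 other settings of the analysis the Log2FC of Prdx6 lay between -0.26 and -0.21, and with 1 female left out at a time between -0.26 and -0.19. Its SE was wider without surrogate variables (0.099), with the position digit of the sample title as a factor (0.106) and with all groups in 1 fit (0.064).

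**Figure D1:**
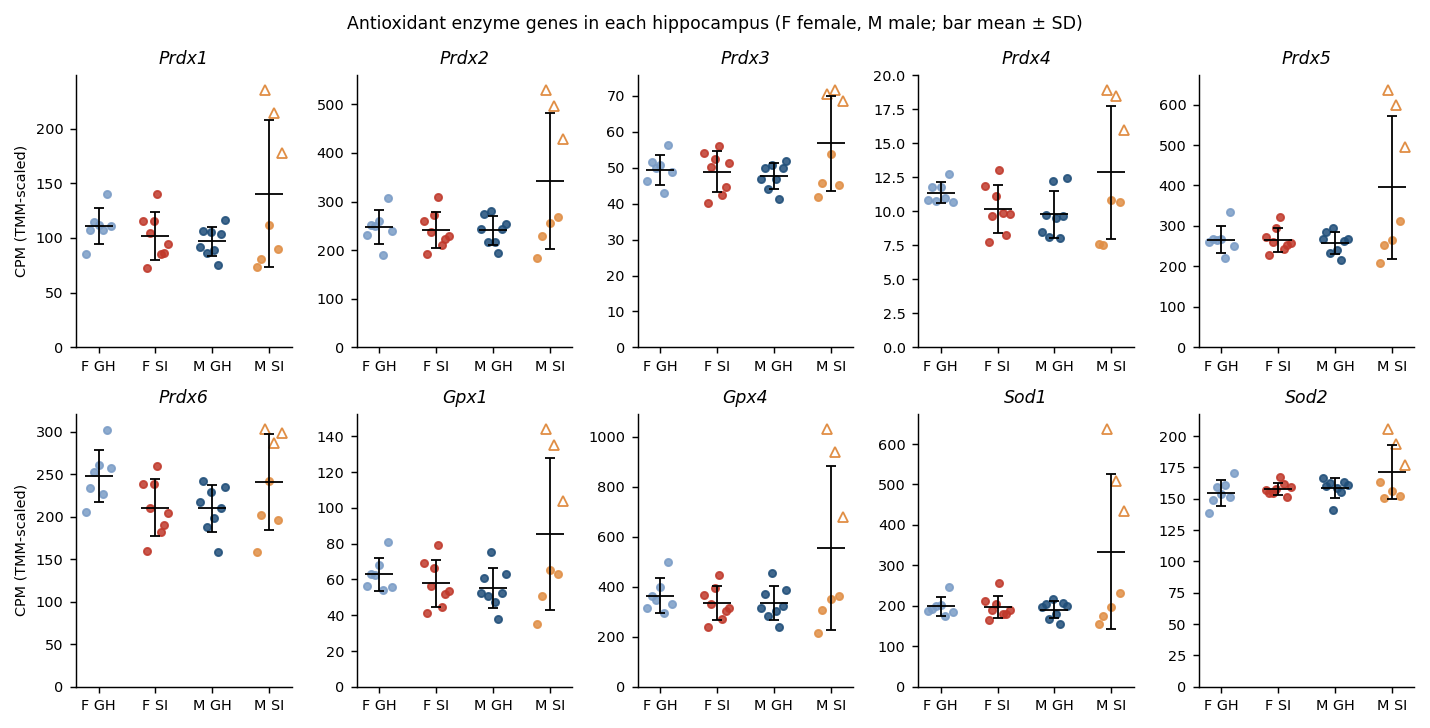
CPM of the 10 genes in each mouse (y axes start at 0 and differ in range), by sex and housing, with the mean and SD of each group as black bars. For Prdx6, 4 of 8 SI females lie below the lowest GH female, and male SI animals 25, 33 and 39 (open triangles) lie above every GH male for all 10 genes.

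Of the typical 2-Cys peroxiredoxins, which pass their electrons on from thioredoxin, the cytosolic Prdx1 and the endoplasmic reticulum enzyme Prdx4 lay lower in SI females without passing the test. Prdx1 levels were 72.6 to 139.9 CPM in SI females (median 99.5) and 84.95 to 140.3 CPM in GH females (median 110.7). Its Log2FC was -0.12 (SE 0.037, adjusted p = 0.0715 from edgeR). Prdx4 levels were 7.71 to 13.1 CPM in SI (median 9.83) and 10.7 to 12.7 CPM in GH (median 10.99), and 5 of 8 isolated females held less than any GH female. The Log2FC of Prdx4 was -0.19 (SE 0.058, adjusted p = 0.0778 from edgeR), close in size to that of Prdx6 but with a wider error. Cytosolic Prdx2, at 241.7 ± 37.1 CPM in SI (SD, n = 8) and 247.4 ± 35.0 in GH (SD, n = 7), had a Log2FC of -0.018 (SE 0.042). Mitochondrial Prdx3, at 48.9 ± 5.75 CPM in SI and 49.5 ± 4.16 in GH, had a Log2FC of -0.011 (SE 0.038). Prdx5, an atypical 2-Cys enzyme of mitochondria, peroxisomes and cytosol, had a Log2FC of 0.0064 (SE 0.040), with means of 266.5 CPM in SI and 266.4 CPM in GH. For these 3 genes the SI and GH means differed by far less than the SD within either group, and the adjusted p from edgeR was 0.86, 0.909 and 0.951.

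Both glutathione peroxidases were also lower in the SI mean of females, within the spread of the groups. Gpx1, the soluble enzyme that reduces hydrogen peroxide, was at 41.3 to 79.3 CPM in SI (median 55.0) and at 54.3 to 80.8 CPM in GH (median 62.2), and 4 of 8 SI females lay below the lowest GH female. The Log2FC of Gpx1 was -0.14 (SE 0.046, adjusted p = 0.088 from edgeR). Gpx4, which reduces lipid hydroperoxides in membranes and guards against ferroptosis, was at 238 to 448.4 CPM in SI (median 323.2) and at 296.3 to 499.6 CPM in GH (median 345.8). Its Log2FC was -0.12 (SE 0.044, adjusted p = 0.131 from edgeR). The dismutases differed less. Sod1, the copper and zinc enzyme of the cytosol, had means of 197 ± 28.1 CPM in SI and 198.7 ± 23.4 in GH with a Log2FC of -0.023 (SE 0.034, adjusted p = 0.767 from edgeR). Sod2, the manganese enzyme of mitochondria, had means of 158.1 ± 4.87 CPM in SI and 154.7 ± 10.2 in GH with a Log2FC of 0.050 (SE 0.041, adjusted p = 0.533 from edgeR).

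Leaving Prdx6 aside, edgeR called 0 of 9 genes in females, against 3.89% of the 16026 genes tested, and 7 of the 9 had a Log2FC below 0 with a median of -0.023. Over all genes tested the median was 0.0077, and 47.2% lay below 0. An unadjusted p under 0.05 was found for 4 of the 9 (Prdx1, Prdx4, Gpx1 and Gpx4), and for 20.2% of all genes tested. DESeq2 with the same surrogate variables, which called 9.54% of the genes to which it gave an adjusted p, called 3 of these 4, with adjusted p = 0.0183 for Prdx1, 0.0437 for Prdx4 and 0.0472 for Gpx1. SI and GH females overlapped for each of the 10 genes, whereas the groups did not overlap for 0.312% of all genes tested. The edgeR calls of these genes also changed when single animals were left out. Prdx1 was called without GH female 46, 47 or 78 or without SI female 52 or 53, and its Log2FC then lay between -0.18 and -0.14. Of all genes, those fits called 5.88%, 4.66%, 8.86%, 6.36% and 3.95% in that order. Without GH female 78, where 8.86% of all genes were called against 3.89% with it, edgeR called 4 of the 9, namely Prdx1, Prdx4, Gpx1 and Gpx4, with adjusted p-values of 0.0232, 0.0306, 0.0105 and 0.035.

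**Figure D2:**
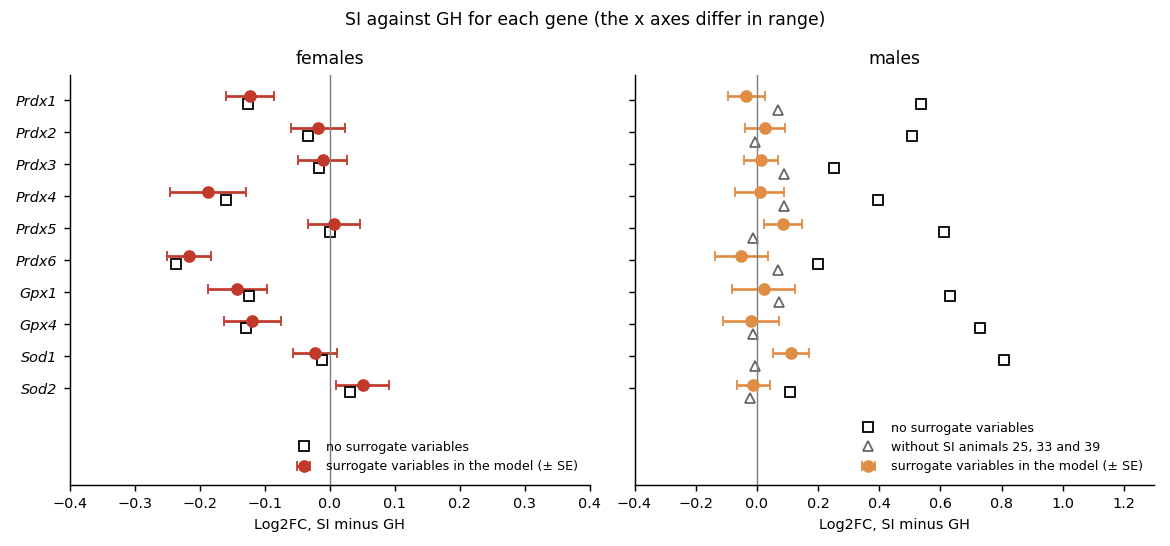
Log2FC of SI against GH for each gene in females (left) and males (right), with filled points and bars for the fitted value and its SE, open squares for the fit without surrogate variables and, in males, open triangles for the fit without animals 25, 33 and 39. In females Prdx6, whose lower level led to the choice of the set, lies at -0.22 with and -0.24 without surrogate variables. In males the fit without surrogate variables gives up to 0.81 (Sod1) where the fit with them gives 0.11.

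In males no member passed the test, and the group means were set by 3 libraries. SI animals 25, 33 and 39 lay above every GH male for all 10 genes. For Sod1 they held 636.5, 508.5 and 435.6 CPM, whereas the other 4 SI males held 156.2 to 233.0 CPM and the 8 GH males 156.2 to 216.2 CPM. Gpx4 reached 678.8 to 1029 CPM in these 3 animals against 213.8 to 361 CPM in the other 4 SI males and 238.6 to 456.3 CPM in GH. Sod2 was the exception in size, at 176.7 to 205.5 CPM in the 3 animals and at 140.7 to 166.6 CPM in GH. Prdx6 was at 286.4, 302.7 and 297.8 CPM in animals 33, 25 and 39 and at 159, 196.4, 201.5 and 241.4 CPM in the other 4 SI males. In GH males Prdx6 was at 158.1 to 241.8 CPM with a median of 213.8, so the 4 remaining SI males lay within the range of GH.

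Mean CPM of Prdx6 was 240.8 ± 56.8 in SI males (SD, n = 7) and 209.6 ± 27.6 in GH males (SD, n = 8), and 199.6 ± 33.7 in SI without the 3 animals (SD, n = 4). The fitted Log2FC of Prdx6 in males was -0.051 (SE 0.086), it was 0.20 without surrogate variables, and it was 0.070 without the 3 animals. The fit without them held 4 surrogate variables, against 2 with all males. Its sign was opposite to that of the mean CPM (199.6 in SI, 209.6 in GH). For the other 9 genes the Log2FC lay between -0.034 (Prdx1) and 0.11 (Sod1, SE 0.059), and without surrogate variables between 0.11 (Sod2) and 0.81 (Sod1), so that no direction can be given for them in males. The adjusted p from edgeR was 0.417 to 0.975, with 0 of 9 called against 0% of 15833 genes, and none of the 9 had an unadjusted p under 0.05, against 13% of all genes. DESeq2 called 0 of 9 as well, against 0.353% of the genes to which it gave an adjusted p. Without animals 25, 33 and 39, edgeR again called 0 of 9, against 0.00616% of all genes, and the Log2FC of Sod1 was -0.0065. Without SI animal 27, however, edgeR called 1 of 9, namely Sod1 (Log2FC 0.25, adjusted p = 0.0153), in a fit that called 15.3% of all genes. SI and GH males overlapped for all 10 genes, and the groups did not overlap for 0.0568% of all genes tested.

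The difference between the sexes in the housing effect was tested in 1 model of all 30 mice. None of the 9 genes passed, against 0% of 16391 genes, and the lowest adjusted p from edgeR was 0.575, for Prdx1. The Log2FC in males minus that in females was 0.13 for Prdx1 (SE 0.050) and 0.20 for Prdx4 (SE 0.090). These were the only 2 of the 9 with an unadjusted p under 0.05 from edgeR, against 7.75% of all genes tested. DESeq2 called 0 of 9, against 0.0671% of all genes. For Prdx6 it was 0.24 (SE 0.060) and, as the housing difference of this gene led to its choice, it is given without a test. Without SI male 7, edgeR called Prdx1 for this difference (0.29, adjusted p = 0.0397), in a fit that called 0.989% of all genes.

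Astrocyte marker genes moved with Prdx6 in females. All 10 of the list (Gfap, Aqp4, Aldh1l1, Slc1a3, Slc1a2, Gja1, Aldoc, Fgfr3, S100b and Sox9) had a Log2FC below 0 in females, with a median of -0.22. Against 3.89% of all genes tested in females, edgeR called 5 of the 10. These were the glutamate transporters Slc1a2 (-0.28, adjusted p = 0.0108) and Slc1a3 (-0.24, adjusted p = 0.014), S100b (-0.26, adjusted p = 0.0122), Aldoc (-0.22, adjusted p = 0.0163) and Aldh1l1 (-0.27, adjusted p = 0.0215). An unadjusted p under 0.05 was found for 9 of the 10, against 20.2% of all genes tested. Without surrogate variables, or with the position digit of the sample title as a factor, edgeR called 0 genes in females. The summed level of the 10 markers was 4766 to 6572 CPM in SI females and 5696 to 7714 CPM in GH females. The means were 5713 and 7008 (two-sided exact permutation test, p = 0.00326 over 6435 splits, adjusted p = 0.0224 over the 8 library measures tested in a sex). In males the sum was 4048 to 6243 CPM in SI and 5065 to 6977 CPM in GH (two-sided exact permutation test, p = 0.0141, adjusted p = 0.0747). There 8 of 10 Log2FC were below 0 and edgeR called 0, against 0% of all genes tested. Of the 10, 2 had an unadjusted p under 0.05, against 13% of all genes tested. Without SI males 25, 33 and 39 the mean sums in males were 5224 and 5932 CPM (two-sided exact permutation test, p = 0.143 over 495 splits). In that fit 6 of 10 Log2FC were below 0, and edgeR called 0, with 2 at an unadjusted p under 0.05. Of all genes, that fit called 0.00616%, and 6.29% had an unadjusted p under 0.05. No marker of the list was at 0 in any mouse. Within females, Prdx6 and the summed markers had a Pearson r of 0.80 (Spearman 0.78, n = 15), and 0.73 without the 2 mice farthest from the median sum. Among the 12 males without animals 25, 33 and 39, r was 0.74 (Spearman 0.75), while those 3 animals had the highest Prdx6 among males with sums near the low end. These points share libraries and housing groups, and the part of astrocyte RNA in the Prdx6 difference was not tested. In whole hippocampus, fewer cells of a type and less RNA per cell cannot be told apart.

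**Figure D3:**
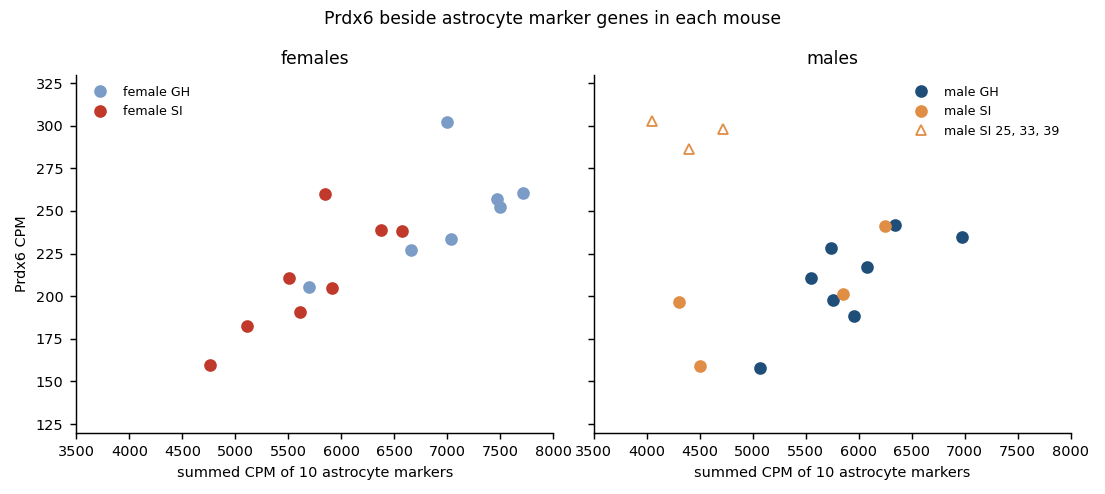
Prdx6 CPM (y axis, not from 0) against the summed CPM of 10 astrocyte marker genes (x axis, not from 0) in each mouse, for females (left) and males (right). SI females lie towards the lower left and GH females towards the upper right, and male SI animals 25, 33 and 39 (open triangles) have Prdx6 of 286.4 to 302.7 CPM at low marker sums.

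In females fewer markers of each other cell type were called than of astrocytes, while all or most of each list shared a direction. The Log2FC was above 0 for 5 of 5 endothelial, 5 of 5 choroid plexus and 4 of 4 hippocampal neuron markers. It was above 0 for 7 of 8 neuron markers, and below 0 for 6 of 6 microglia and 7 of 8 oligodendrocyte markers. In females edgeR called 1 of 8 neuron markers (lower), 1 of 5 endothelial markers (higher) and 0 of 8 oligodendrocyte, 0 of 6 microglia, 0 of 5 choroid plexus and 0 of 4 hippocampal neuron markers. The median Log2FC of these lists was 0.053, 0.11, -0.077, -0.082, 0.26 and 0.097 in that order. At an unadjusted p under 0.05 were 3 neuron, 3 endothelial, 2 oligodendrocyte, 1 microglia, 0 choroid plexus and 2 hippocampal neuron markers. Of all genes tested in females, 3.89% were called and 20.2% had an unadjusted p under 0.05. The summed neuron markers were lower in SI females, with means of 9712 and 10580 CPM (two-sided exact permutation test, p = 0.00839, adjusted p = 0.0224), although 7 of the 8 had a fitted Log2FC above 0. Camk2a, the 1 marker called, had means of 4827 CPM in SI and 5934 CPM in GH (Log2FC -0.24, adjusted p = 0.0197 from edgeR). This gap was wider than that of the sum, so the lower sum rested on Camk2a. The summed endothelial markers were higher in SI females, with means of 201.1 and 173.3 CPM (two-sided exact permutation test, p = 0.00715, adjusted p = 0.0224). For the other 4 sums in females the exact permutation p was 0.0768 to 0.401. In males the neuron sum was lower and the endothelial sum higher in SI (two-sided exact permutation test, p = 0.028 and 0.0272, both with adjusted p = 0.0747), and without animals 25, 33 and 39 the exact permutation p was 0.473 and 0.341. Most of the lower neuron sum in males was Camk2a, with means of 3929 CPM in SI and 5187 CPM in GH. In males 0 markers of any list were called by edgeR, against 0% of all genes tested. At an unadjusted p under 0.05 were 3 neuron and 1 hippocampal neuron marker, against 13% of all genes tested. None of the oligodendrocyte, microglia, endothelial and choroid plexus markers was. Without the 3 animals 0 markers were called as well, against 0.00616% of all genes. Outside the astrocyte list only 1 microglia marker then had an unadjusted p under 0.05, against 6.29% of all genes. The part of these cell types in the members' levels was not tested.

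The same animals stood at the ends of the range for most members. SI female 45 was the lowest SI female for 9 of 10 genes, SI female 53 the highest for 10 of 10 and GH female 78 the highest GH female for 9 of 10. Among males, SI animal 7 was lowest for 8 of 10 and SI animal 25 highest for 9 of 10, and GH animal 22 was the lowest GH male for 9 of 10. These libraries also differed in how their counts were spread over short and long transcripts. For each library, the length slope is the change in log2 CPM, relative to the mean over the mice of its sex, for each doubling of transcript length, so that a negative slope means relatively more counts on short transcripts. It was 0.13 in SI female 45, -0.17 in SI female 53 and -0.16 in GH female 78. In SI males 25, 33 and 39 it was -0.44, -0.42 and -0.34, and it was 0.23 in SI male 7 and 0.22 in GH male 22.

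Most members have short transcripts. The longest coding transcript had 646 bases for Sod1, 847 for Gpx1, 990 for Prdx4, 995 for Gpx4, 1262 for Prdx5, 1478 for Prdx3, 1612 for Prdx2, 2294 for Prdx1, 2387 for Prdx6 and 3824 for Sod2, and the median of all genes tested in females was 3015. Across the 15 females, log2 CPM and length slope had a Pearson r of -0.97 for Sod1 and Prdx5, -0.94 for Prdx2, -0.92 for Gpx4 and -0.90 for Gpx1. For Prdx6 r was weaker, at -0.70, and for Sod2 it was -0.012. Without the 2 females of the most extreme slope, r was -0.92 for Sod1, -0.57 for Prdx6 and 0.21 for Sod2. In the 12 males without animals 25, 33 and 39, r was -0.99 for Sod1, -0.75 for Prdx6 and 0.36 for Sod2. The points of each r are libraries that share a sex and 2 housing groups. The slope did not separate SI from GH females, with means of -0.0040 and 0.0045 (two-sided exact permutation test, p = 0.848). In males the means were -0.11 and 0.10 (two-sided exact permutation test, p = 0.0688), and 0.099 and 0.10 without animals 25, 33 and 39 (two-sided exact permutation test, p = 0.988). With each library's length and GC trend removed, the Log2FC of Prdx6 was -0.25 in females and -0.067 in males, and that of Prdx1 in females was -0.17 (adjusted p = 0.0116 from edgeR).

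**Figure D4:**
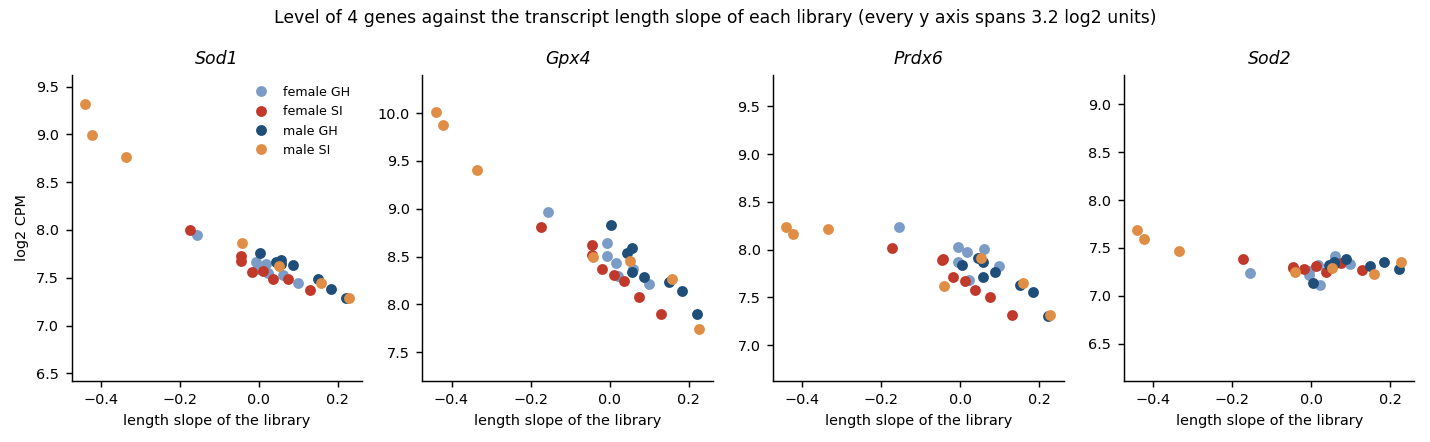
Log2 CPM of Sod1, Gpx4, Prdx6 and Sod2 (y axes, each spanning the same number of log2 units) against the length slope of the library. The slope (x axis) is in log2 CPM per doubling of transcript length, with 1 point a mouse coloured by sex and housing. It is relative to the mean over the mice of the same sex, so slopes cannot be compared between females and males. Sod1 and Gpx4 go down from male SI animals 25 and 33, at slopes of -0.44 and -0.42, to SI male 7 at 0.23, Prdx6 does so less, and Sod2 is nearly level outside the 3 animals with slopes of -0.44 to -0.34.

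Per kilobase of transcript, which allows levels to be compared between genes, the 10 genes kept 1 order of mean log2 level in all 4 groups. In GH females mean levels were 366.2 CPM per kilobase for Gpx4, 307.6 for Sod1, 211.1 for Prdx5, 153.5 for Prdx2, 104 for Prdx6, 74.4 for Gpx1, 48.4 for Prdx1, 40.5 for Sod2, 33.5 for Prdx3 and 11.5 for Prdx4. Gpx4 ranked 130 of 15027 genes with a known length in GH females, Sod1 168, Prdx5 275 and Prdx2 402, while Prdx4 ranked 5383. In GH females the ranges of neighbours did not overlap between Sod1 and Prdx5, between Gpx1 and Prdx1 and between Prdx3 and Prdx4, and the other neighbours overlapped. In male SI mice only Prdx3 and Prdx4 were apart. Between mice of 1 group Sod2 varied least, with a coefficient of variation of CPM of 3.08% in SI females and 5.02% in GH males, and Gpx4 varied by 20.4% in both of these groups. In SI males the coefficient of variation reached 59.1% for Gpx4 and 57.1% for Sod1 and was 12.6% for Sod2.

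**Figure D5:**
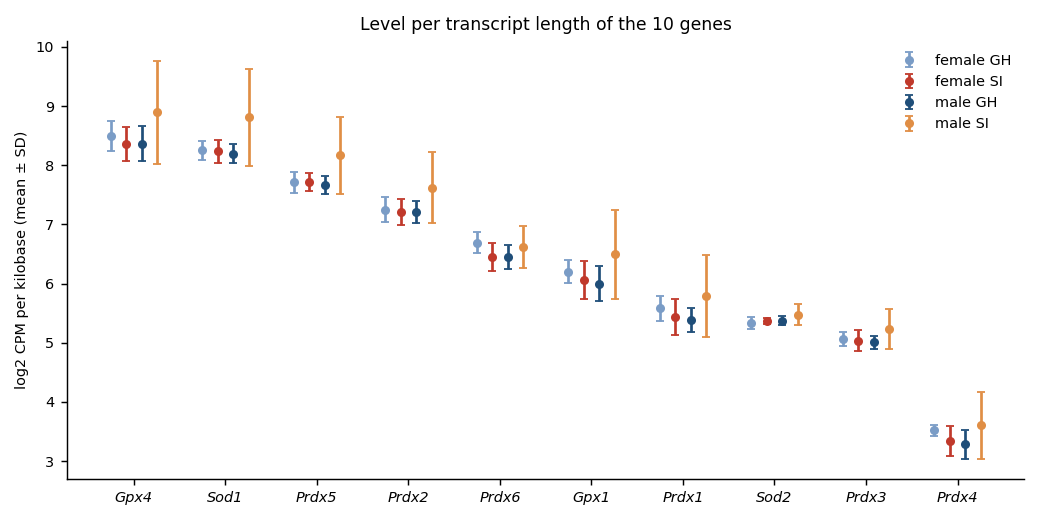
Mean log2 CPM per kilobase of the longest coding transcript (y axis) for the 10 genes in the order of GH females, with 1 point for each sex and housing group and bars for the SD. The order from Gpx4 to Prdx4 is the same in all 4 groups, and the SD is widest in SI males.

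By the lower of the Pearson correlations in females and in males (log2 CPM, 15 mice each), the 5 genes most like Prdx6 among 15769 were Hopx (0.955), Eci2 (0.954), Hrsp12 (0.952), Cst3 (0.951) and Serpine2 (0.95). Hopx encodes a small homeodomain protein, Eci2 an enoyl-CoA isomerase, Hrsp12 a deaminase of reactive imines, Cst3 cystatin C and Serpine2 a serine protease inhibitor. In the 12 males without animals 25, 33 and 39 their correlations were 0.92, 0.967, 0.90, 0.965 and 0.93. Among the members, Prdx1 was most like Prdx6, at 0.94 in females and 0.92 in males, followed by Gpx1 at 0.90 and 0.93 and Gpx4 at 0.90 and 0.91. Sod2 was least like it, at 0.19 in females and 0.61 in males, or -0.15 in those 12 males. All these correlations share libraries, length slope and housing groups and are descriptions.

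The RefSeq promoter windows of GRCm38.p6, which run from 250 bases before to 50 bases after a transcription start, were searched on both strands for TGACNNNGC, the core of the antioxidant response element bound by Nrf2. The 9 members with a window had 12 windows, of which 2 held a match, against 12.4% of all 32851 windows. These were 1 match each in Prdx1 and Sod1, both on the reverse strand of the window sequence. Prdx6 had no window in the table used.

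Among 49 further genes of the antioxidant system, grouped by role, edgeR called 4 in females, all lower in SI, and 0 in males, where 3.89% and 0% of all genes tested were called. Glutathione transferases, which couple glutathione to electrophiles, held 2 of the 4. Gstm1 had means of 214.9 ± 34.7 CPM in SI (SD, n = 8) and 267.7 ± 32.2 in GH (SD, n = 7), and its Log2FC was -0.30 (SE 0.051, adjusted p = 0.00703 from edgeR). Gstm5 had means of 137.2 and 155.7 CPM and a Log2FC of -0.16 (SE 0.037, adjusted p = 0.0246 from edgeR). As mu-class transferases are close paralogues, reads could be shared between them. The other 2 belong to the thioredoxin cycle that recharges the 2-Cys peroxiredoxins. Txnrd3, a thioredoxin reductase, had means of 4.03 and 4.88 CPM and a Log2FC of -0.35 (SE 0.081, adjusted p = 0.0246 from edgeR). The reductase genes Txnrd1 (means of 60.98 and 58.29 CPM) and Txnrd2 (14.02 and 14.65 CPM) had higher levels than Txnrd3 and were not called. Their Log2FC was 0.066 and -0.064 (adjusted p = 0.364 and 0.497 from edgeR). Txnip, which binds and inhibits thioredoxin, had means of 20.6 and 22.9 CPM and a Log2FC of -0.18 (SE 0.046, adjusted p = 0.0397 from edgeR).

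By role, edgeR called 2 of 9 glutathione transferases and 2 of 7 genes of the thioredoxin and sulfiredoxin cycle in females, and 0 of 9 for glutathione supply and glutaredoxins, 0 of 6 other peroxidases and dismutases, 0 of 5 methionine repair genes, 0 of 6 genes of the Nrf2 axis and 0 of 7 for selenoprotein synthesis and supply. At an unadjusted p under 0.05 these 5 roles held 2, 1, 0, 2 and 2 genes. Of all 49 genes, 25 had a Log2FC below 0 and 24 above 0 in females, with a median of -0.021, and 14 had an unadjusted p under 0.05, against 20.2% of all genes tested. Without surrogate variables 0 of the 49 were called in females, and without 1 female at a time 1 to 10 were called, the most without GH female 78 (8.86% of all genes called) and the fewest without SI female 45, 49 or 73 (0.926%, 1.8% and 1.82%). In males 6 of the 49 had an unadjusted p under 0.05, against 13% of all genes tested. Without animals 25, 33 and 39, 0 of the 49 did, against 6.29% of all genes. That edgeR fit called 0 of the 49, against 0.00616% of all genes. With all males, the 3 smallest p-values belonged to Gstm7, Lrp8 and Slc7a11. Gstm7 had a Log2FC of 0.17 (adjusted p = 0.33 from edgeR). For the selenoprotein P receptor gene Lrp8 it was -0.16 (adjusted p = 0.332 from edgeR). For the cystine transporter gene Slc7a11 it was -0.34 (adjusted p = 0.339 from edgeR). Without SI male 27, 9 of the 49 were called in males, where 15.3% of all genes were.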

How the data were processed

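Poly(A)-selected hippocampal libraries of 30 mice (8 SI and 7 GH females, 7 SI and 8 GH males) were analysed. The authors trimmed reads with Trimmomatic 0.39, quantified them with Salmon 1.8.0 on GRCm39 and deposited a table of raw counts, which are whole numbers that were not normalised, and the lowest gene total in the table was 100. Symbols were found for 16439 of 17477 Ensembl IDs (94.1%) and transcript lengths, from GENCODE vM1, for 15964 (91.3%).

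Each sex was tested apart with edgeR 4.0.16 (R 4.3.3): filterByExpr at a minimum count of 10, TMM, glmQLFit and glmQLFTest, Benjamini-Hochberg over all genes, and a threshold of 0.05. Surrogate variables from svaseq (sva 3.50.0) entered each main model, 3 in females, 2 in males and 4 for sex by housing. Their number was set anew in alternative fits that used them. DESeq2 1.42.0, the tool the authors used, was an alternative. A group's Log2FC need not equal the ratio of its CPM means, which are not adjusted. The labels do not say whether mice shared a litter or a cage.

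The members, the wider list and the marker lists were chosen with earlier results of these data known. Genes named are all members, the wider list's called genes with the 3 smallest p-values of each sex, and the 5 genes most like Prdx6. Txnrd1 and Txnrd2 were named in addition, beside Txnrd3. The length of the longest coding transcript stood for each gene. Total counts were 18809307 to 100844898 per mouse. Marker sums and length slopes of males without 3 animals were added after seeing the data.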

Additional observations from a re-analysis of the deposited data

Results flagged for a closer look

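Among 40 groups of 7 or 8 mice (10 genes in 4 groups), 3 held a mouse that lay far from the rest of its group by Dixon's test, which chance gives in about 1 in 20 groups. GH female 78 had 334 CPM of Prdx5, with the next GH female at 267.6 CPM, and 247.3 CPM of Sod1, with the next at 202.4 CPM. GH male 15 had 140.7 CPM of Sod2, with the next GH male at 155.8 CPM. The length slope of the library of GH female 78 was -0.16, the lowest of the GH females, and that of GH male 15 was 0.0032, the lowest of the GH males. The part of the slope in these values was not tested.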

How the results depend on the processing

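Each result was recomputed under 7 alternatives in females and for sex by housing and 8 in males, and with each mouse left out in turn. For the 9 members other than Prdx6, 711 of 738 values stayed on the same side of the threshold without a change of sign beyond their standard error, 15 passed it only under the alternative, and 12, all in males and none of them called, took the other sign by more than their standard error. These were Prdx1 (from -0.034 to 0.54 without surrogate variables, 0.45 with the position digit of the sample title as a factor and 0.070 without animals 25, 33 and 39), Gpx4 (from -0.020 to 0.73 and 0.60 under the first 2 of these), Sod2 (from -0.012 to 0.11 without surrogate variables) and Prdx4 (from 0.0091 to -0.082 with all groups in 1 fit). With 1 male left out, Prdx1 ranged from -0.12 (without SI 25) to 0.19 (without SI 38), Gpx4 from -0.14 to 0.24 (same animals) and Sod2 from -0.033 (without GH 15) to 0.063 (without SI 38). The Log2FC of Prdx6 in females was -0.24 without surrogate variables and -0.26 with the position digit. In males it was 0.20 and 0.23, and for sex by housing 0.43 and 0.46, the 4 of its 82 values that moved by more than the SD between GH mice. Without animals 25, 33 and 39, the SI minus GH difference of summed markers in males was -432.2 CPM for choroid plexus, -9.89 for microglia and -439 for oligodendrocytes, against 607.9, 47.2 and 866.2 with them.

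Genes called in females, 624, numbered 1262 with DESeq2, 1519 with the length and GC trend removed, 0 without surrogate variables, 0 with the position digit, and 88 (without SI 68) to 1427 (without GH 78) with 1 mouse left out. Members called in females, 0 of 9, numbered 3 with DESeq2, 1 without a filter, 1 with the trend removed, and 0 to 4 with 1 mouse left out. The wider list, 4 called, gave 0 without surrogate variables, 0 with the position digit, 1 with all groups in 1 fit, and 1 to 10 with 1 mouse left out. In males, 44 genes were called with DESeq2 and 1 without animals 25, 33 and 39, and with 1 mouse left out 0 to 2414 genes (most without SI 27), 0 to 1 members and 0 to 9 of the wider list. For sex by housing, 11 genes were called with DESeq2, 3 without a filter and 3 with the trend removed, and with 1 mouse left out 0 to 162 genes (most without SI male 7) and 0 to 1 members. The cause of these changes was not tested. By CPM without division by length, Prdx6 ranked 3 in GH females and 4 in GH males, against 5 per kilobase in both. No paired analysis was possible because animal numbers are not shared between groups.

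Prdx4 had the fewest counts of the members, 146 to 792 per mouse, and counting error bears most on it.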
